A study of Mus musculus with 12 samples.

Results

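The Notch pathway and its HES/HEY repressors were followed through 10 genes in whole lung of mice given L-NAME with a high-fat diet. They were the ligand genes Dll4, Jag1 and Jag2, the receptor genes Notch1 and Notch4, and the repressor genes Hes1, Hes2, Hey1, Hey2 and Heyl. The genes were taken by symbol from a table of 23127 genes, and all 10 were found once each. They were chosen by symbol with earlier results of these libraries in view, among them the members' own differences in CPM (read counts scaled to a common library total) between the 3 groups. Their values are therefore a description, and no p-value is given for them. The 12 libraries, 1 per C57BL6/J mouse, came from flash-frozen whole lung. They comprised 4 controls at 0 weeks, 4 mice after 2 weeks and 4 mice after 5 weeks of treatment. Treated mice drank water with L-NAME, an inhibitor of nitric oxide synthase, at 0.5 g/L and ate a diet of 60% lipid. L-NAME and the diet were given together and the only untreated mice were those of 0 weeks, so drug, diet and time on study cannot be told apart.

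Notch receptors are cleaved when a Delta or Jagged ligand on a neighbouring cell engages them, and the released intracellular part joins the DNA-binding protein RBPJ to switch on genes. HES and HEY genes are its best-known targets and encode basic helix-loop-helix proteins that repress transcription. In the vessel wall, Dll4, Notch1 and Notch4 act mainly in endothelium, where Dll4 restrains sprouting and Notch signalling keeps arterial identity. Jag1 and Heyl serve signalling between endothelium and smooth muscle, and in the airway Notch steers the choice between secretory and ciliated cells.

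The 5 repressors differ at the end of their coding sequence, which in HES proteins carries a short motif known as WRPW that recruits TLE co-repressors. The last 36 coding bases, stop codon included, are shown from GENCODE M21 transcripts on GRCm38, because Hes2 and Hes1 follow different courses below although both carry the motif. Capitals mark 4 codons in frame that read TGG, any codon, CCN and TGG, or the form of HEY genes, which opens with TAN in place of TGG.
Hes2: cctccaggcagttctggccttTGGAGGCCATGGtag
Hes1: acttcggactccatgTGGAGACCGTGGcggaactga
Hey1: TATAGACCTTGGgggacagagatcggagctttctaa
Hey2: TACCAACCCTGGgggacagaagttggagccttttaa
Heyl: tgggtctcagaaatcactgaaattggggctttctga
Hes2, on chromosome 4, has a coding length of 157 codons and ends with the motif directly before the stop. Hes1, on chromosome 16, has 282 codons and 2 further codons after the motif. Hey1, on chromosome 3, and Hey2, on chromosome 10, each have 7 codons after the tyrosine form. Heyl, on chromosome 4, has neither form in these bases. Of 21504 coding genes 4 (0.0186%) have the TGG form directly before the stop.

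Promoters of Hey2 and Dll4 are shown because both genes stood above every control at 2 weeks. They are RefSeq windows on GRCm38.p6 from 250 bases before to 50 bases after the start, available for 6 of the 10 genes. The 4 without a window were Hes1, Hey1, Heyl and Hes2, which also stood above every control at 2 weeks. Capitals mark TGGGAA or its reverse complement TTCCCA, the core letters bound by RBPJ.
Hey2, chr10:30842734-30843033, minus strand: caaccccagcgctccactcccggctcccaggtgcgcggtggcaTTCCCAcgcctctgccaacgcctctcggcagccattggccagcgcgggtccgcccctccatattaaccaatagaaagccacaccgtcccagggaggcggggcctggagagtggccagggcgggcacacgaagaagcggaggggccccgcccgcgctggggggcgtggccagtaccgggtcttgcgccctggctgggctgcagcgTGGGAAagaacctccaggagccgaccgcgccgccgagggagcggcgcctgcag
Dll4, chr2:119325534-119325833, plus strand: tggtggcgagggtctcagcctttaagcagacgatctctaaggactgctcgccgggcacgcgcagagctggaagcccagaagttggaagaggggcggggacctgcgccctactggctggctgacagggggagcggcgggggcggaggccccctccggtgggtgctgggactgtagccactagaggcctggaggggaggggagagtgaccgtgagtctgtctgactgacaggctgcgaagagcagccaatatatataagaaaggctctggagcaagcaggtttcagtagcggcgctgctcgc
Hey2 held 2 matches, with first bases at -207 and -3 from the start, and the window of Dll4 held 0. Of 32851 promoter windows of this length 25.6% hold these letters. Hey2 was the only 1 of the 6 genes to do so, and the only HES/HEY gene with a window, so the other repressors were not searched. The letters CACGCG, which HES proteins can bind, were searched on both strands as well and stood in Dll4 once, in Jag2 once and in Jag1 at 2 places, against 9.27% of all windows with at least 1. The N-box CACNAG, another HES site, cannot match the same bases as CACGCG and was found once in Dll4 (42.5% of all windows hold it). Notch1 had 3 matches, of which 2 overlap on opposite strands in the stretch cactagtg. These matches are letters in a window and not measured sites.

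Depth, estimated from the spacing of low values, was 25900000 to 34000000 reads per library. Endothelial markers were present throughout: Pecam1 lay between 729 and 920 CPM and Cdh5 between 713 and 1014 CPM over the 12 libraries. The basal airway marker Krt5 lay between 0.0001 CPM, the value of a gene without reads, and 1.06 CPM. Summed CPM of the 16 endothelium markers lay between 7181 and 8880 in controls, 8233 and 8864 at 2 weeks and 7036 and 8425 at 5 weeks. Summed red cell markers lay between 1238 and 2607 CPM in controls, 1082 and 2495 CPM at 2 weeks and 1512 and 16231 CPM at 5 weeks. The lowest endothelium sum and the highest red cell sum both belonged to 5-week replicate 3. Adipocyte markers reached 1733 CPM in control replicate 2 and no more than 172 CPM in any other library. In whole lung, fewer cells of a type and less RNA per cell cannot be told apart.

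Hes2 was the member whose groups lay farthest apart, at about double its control level after both 2 and 5 weeks. Dll4, Hey1 and Hey2 averaged higher at 2 weeks and stood near their control means at 5 weeks. The receptors Notch1 and Notch4, the Jagged ligands and Heyl averaged below controls at 5 weeks with overlapping mice, and the most abundant repressor per length, Hes1, showed no separation. With limma, 0 of 10 members passed an adjusted p of 0.05 in any of the 3 comparisons, where 0% of the 15562 genes tested were called. Over all genes, unadjusted p-values under 0.05 numbered 1438 (9.24%) between 2 weeks and controls, 1343 (8.63%) between 5 weeks and controls and 1696 (10.9%) between 5 and 2 weeks.

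**Figure D1:**
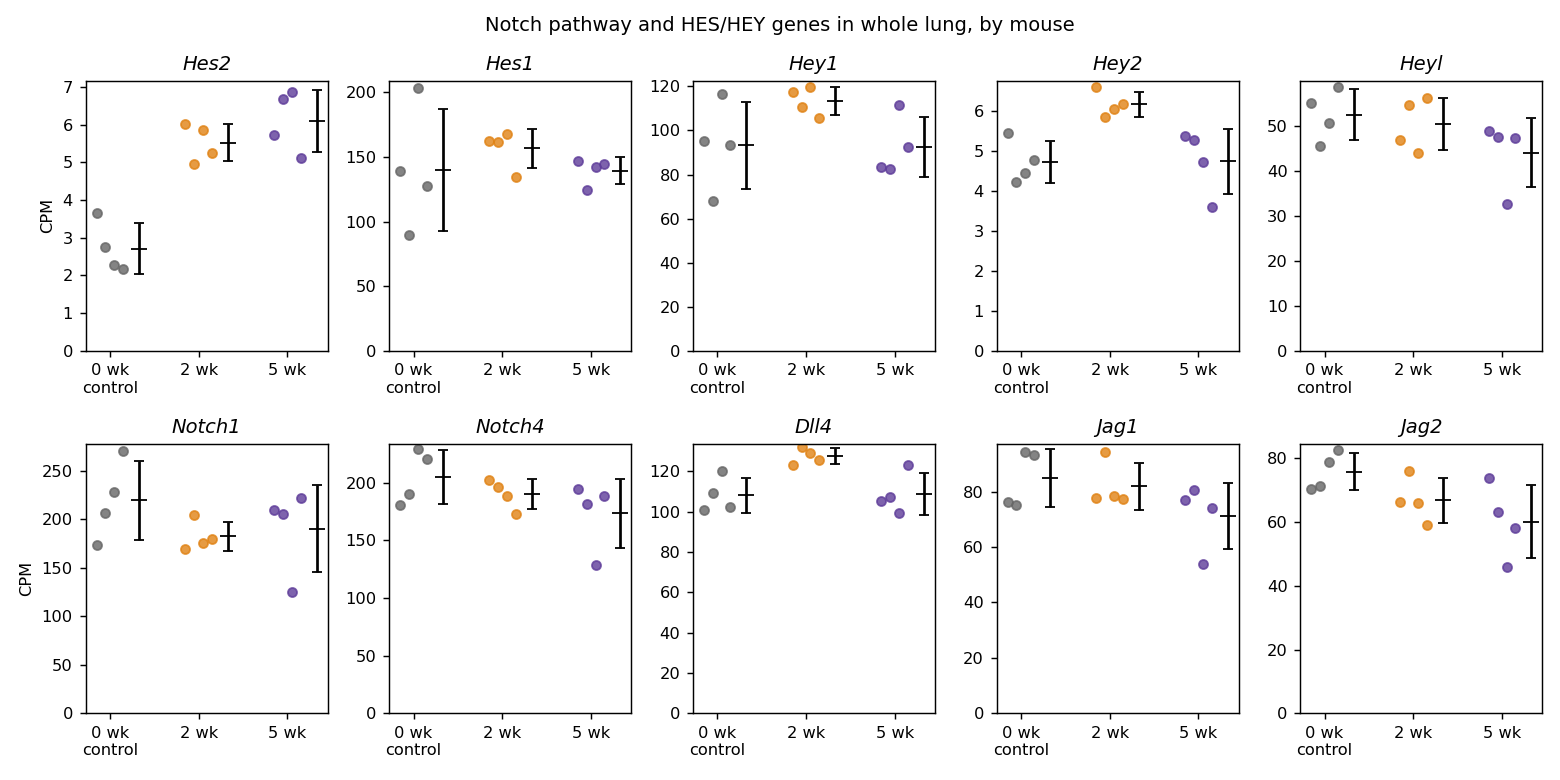
CPM (vertical axis, from 0) of the 10 members in each of 12 mice at 0, 2 and 5 weeks; points are mice, the black mark and bar beside them the mean ± SD of 4. Hes2 lies between 2.18 and 3.67 CPM in controls and at 4.97 CPM or above in every treated mouse, whereas the Notch1, Notch4, Jag1, Jag2 and Heyl groups overlap.

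Dll4, the endothelial Delta-like ligand (ENSMUSG00000027314, chromosome 2, 119156265 to 119166443 in the deposited coordinates), had 101, 109, 120.1 and 102 CPM in control replicates 1 to 4. It had 123, 132, 129 and 126 CPM at 2 weeks and 105, 107, 99.5 and 123 CPM at 5 weeks. Every 2-week mouse stood above every control, while the 5-week mice spread from just below the lowest control to just above the highest. The mean was 127 ± 3.86 CPM at 2 weeks against 108 ± 8.76 CPM in controls (SD, n = 4 each), and 109 ± 10.2 CPM at 5 weeks. Differences in log2(CPM + 1), with standard errors from the fit, were 0.24 ± 0.077 for 2 minus 0 weeks, 0.0068 ± 0.077 for 5 minus 0 weeks and -0.23 ± 0.077 for 5 minus 2 weeks. An antisense lncRNA gene, Gm14207, overlaps Dll4 and lay between 0.726 and 2.81 CPM. Without a stated strand setting, reads from the overlap cannot be assigned to either gene.

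Jag1, the Jagged ligand that signals from endothelium to smooth muscle (ENSMUSG00000027276, chromosome 2, 136923376 to 136958564), had 76.4, 75.0, 94.3 and 93.1 CPM in controls. At 2 weeks it had 77.5, 94.4, 78.2 and 77.3 CPM, and at 5 weeks 76.9, 80.5, 53.8 and 73.9 CPM. The groups overlapped: 5-week replicates 1 and 2 lay among the controls, and replicate 3 was the lowest of all 12. The difference for 5 minus 0 weeks was -0.25 ± 0.13 (log2, SE), and -0.13 without 5-week replicate 3. For 2 minus 0 weeks it was -0.046 ± 0.13.

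Jag2, the second Jagged ligand (ENSMUSG00000002799, chromosome 12, 112871439 to 112893396), had 70.6, 71.4, 78.7 and 82.8 CPM in controls. It had 66.4, 76.0, 66.1 and 59.0 CPM at 2 weeks and 73.8, 63.1, 45.8 and 58.1 CPM at 5 weeks. In each treated group 3 of 4 mice lay below every control. Its mean at 5 weeks, 60.2 ± 11.6 CPM, stood against 75.9 ± 5.88 CPM in controls, a log2 difference of -0.35 ± 0.12 and the lowest of the 10 members in that comparison. Without 5-week replicate 3 that difference was -0.22. For 2 minus 0 weeks it was -0.18 ± 0.12.

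Notch1, the receptor with the broadest use in the vasculature (ENSMUSG00000026923, chromosome 2, 26347915 to 26406675), had 173, 207, 228 and 270.5 CPM in controls. It had 169, 204, 176 and 180.0 CPM at 2 weeks and 209.7, 205, 125 and 222 CPM at 5 weeks. Control replicate 1 lay among the treated mice and control replicate 4 above all of them. The log2 difference was -0.25 ± 0.17 for 2 minus 0 weeks and -0.22 ± 0.17 for 5 minus 0 weeks. The second of these was -0.031 without 5-week replicate 3, and the first was -0.15 without control replicate 4. An antisense lncRNA gene, 0610009E02Rik, overlaps Notch1 and lay between 0.0317 and 12.2 CPM over the 12 libraries.

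Notch4, a receptor largely restricted to endothelium (ENSMUSG00000015468, chromosome 17, 34783242 to 34807477), had 180.4, 191, 229 and 221 CPM in controls. It had 202, 197, 188 and 173 CPM at 2 weeks and 195, 181, 129 and 189 CPM at 5 weeks. All 3 groups overlapped, and 5-week replicate 3 was again the lowest library. The differences were -0.10 ± 0.12 for 2 minus 0 weeks and -0.25 ± 0.12 for 5 minus 0 weeks (log2, SE). At 5 weeks the difference was -0.12 without that library.

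Hes2, a HES repressor less studied than Hes1 (ENSMUSG00000028940, chromosome 4, 152243324 to 152246926), had 3.67, 2.74, 2.27 and 2.18 CPM in controls. It had 6.01, 4.97, 5.85 and 5.25 CPM at 2 weeks and 5.72, 6.68, 6.87 and 5.13 CPM at 5 weeks. All 8 treated mice stood above all 4 controls, and the treated groups overlapped each other. Its mean at 2 weeks was 5.52 ± 0.494 CPM against 2.71 ± 0.684 CPM in controls (SD, n = 4 each), a ratio of 2.03. At 5 weeks the mean was 6.10 ± 0.819 CPM, 2.25 times that of the controls. On the log2(CPM + 1) scale, which compresses a gene this low, the differences were 0.83 ± 0.14 and 0.94 ± 0.14. With an offset of 0.01 CPM in place of 1, chosen after seeing the data, they were 1.05 and 1.19. The level corresponded to between 59.8 and 219 steps of the low values per library, 1 step being worth about 1 read.

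Hes1, the main HES target of Notch in many tissues (ENSMUSG00000022528, chromosome 16, 29883202 to 29886614), had 139, 89.9, 203 and 128 CPM in controls. It had 163, 162, 168 and 135 CPM at 2 weeks and 147, 125, 142 and 144 CPM at 5 weeks. Controls held both the lowest and the highest of the 12 libraries, so every treated value lay inside their range. The coefficient of variation was 33.6% in controls, 9.61% at 2 weeks and 7.27% at 5 weeks. The differences from controls were 0.22 ± 0.18 at 2 weeks and 0.052 ± 0.18 at 5 weeks (log2, SE). They were 0.025 and -0.14 without control replicate 2, the lowest library and the one with the high adipocyte sum, and 0.41 and 0.25 without control replicate 3, the highest. The part of either library's makeup in the result was not tested.

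Hey1, an endothelial HEY target of Dll4 and Notch1 (ENSMUSG00000040289, chromosome 3, 8728419 to 8732316), had 95.2, 67.9, 117 and 93.3 CPM in controls. It had 118, 111, 119.6 and 106 CPM at 2 weeks and 83.6, 82.6, 112 and 92.3 CPM at 5 weeks. The 2-week mice kept within a narrow band near the top control, and 3 of 4 mice at 5 weeks lay below every 2-week mouse. The differences were 0.30 ± 0.14 for 2 minus 0 weeks, 0.0041 ± 0.14 for 5 minus 0 weeks and -0.30 ± 0.14 for 5 minus 2 weeks (log2, SE). The first of these was 0.16 without control replicate 2.

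Hey2, a HEY repressor of arterial and smooth muscle development (ENSMUSG00000019789, chromosome 10, 30708355 to 30718797), had 5.44, 4.23, 4.46 and 4.76 CPM in controls. It had 6.60, 5.86, 6.05 and 6.18 CPM at 2 weeks and 5.38, 5.28, 4.72 and 3.60 CPM at 5 weeks. The 2-week mice stood above every mouse of both other groups. The differences were 0.33 ± 0.12 for 2 minus 0 weeks and -0.33 ± 0.12 for 5 minus 2 weeks, and -0.0020 ± 0.12 for 5 minus 0 weeks (log2, SE).

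Heyl, a HEY gene prominent in vascular smooth muscle (ENSMUSG00000032744, chromosome 4, 123127349 to 123143668), had 55.2, 45.6, 50.7 and 58.7 CPM in controls. It had 46.9, 54.6, 44.1 and 56.2 CPM at 2 weeks and 48.8, 47.5, 32.6 and 47.4 CPM at 5 weeks. The 2-week mice spread across the control range, and 3 of 4 mice at 5 weeks lay close together within it. The difference for 5 minus 0 weeks was -0.26 ± 0.13 (log2, SE), and -0.12 without 5-week replicate 3. For 2 minus 0 weeks it was -0.058 ± 0.13.

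**Figure D2:**
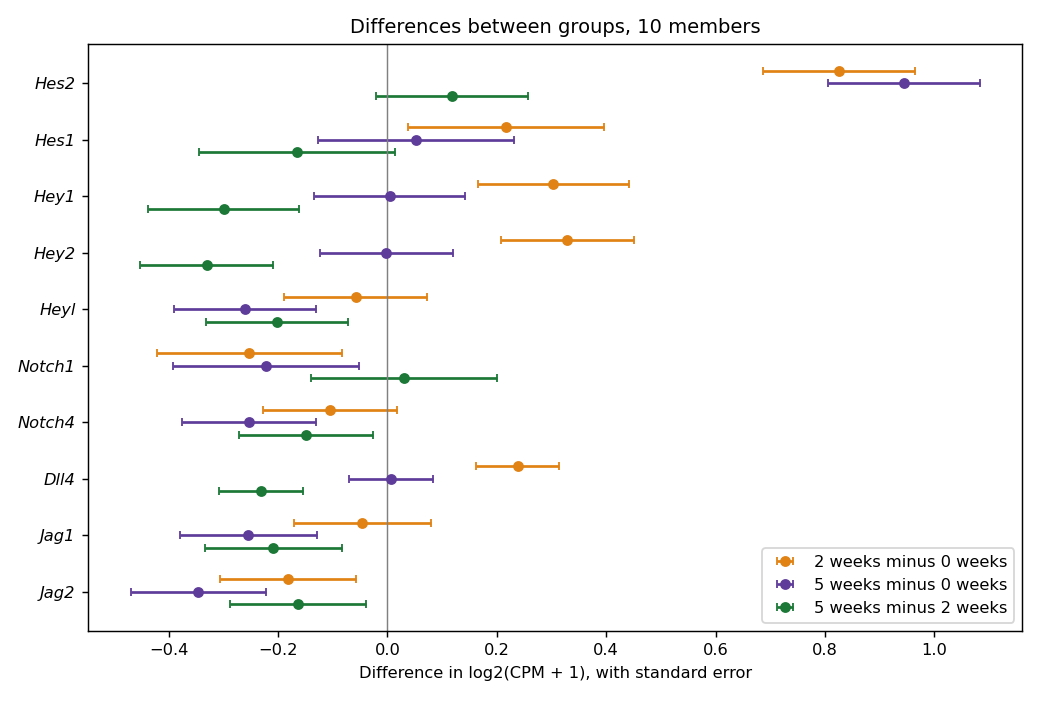
Difference in log2(CPM + 1) with its standard error (horizontal axis) for the 10 members in 3 comparisons, from a limma fit over 12 libraries. Hes2 lies at 0.83 and 0.94 against controls, Dll4, Hey1 and Hey2 are positive for 2 minus 0 weeks and negative for 5 minus 2 weeks, and the receptors and Jagged ligands are below 0 against controls.

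Counted over the list, 3 of 10 members (Hes2, Hey2 and Dll4) had every 2-week mouse above every control, where 3.37% of all genes did, and 0 had every mouse below (1.95% of all genes; 5.32% in either direction). For 5 against 0 weeks only Hes2 was of this kind (3.65% of genes higher, 1.36% lower, 5.01% either), and for 5 against 2 weeks only Hey2 was, on the low side (2.38% of genes higher, 2.56% lower, 4.94% either). Because these contrasts were in view when the members were picked, the counts say nothing beyond the choice. The median log2 difference of the members was 0.085 for 2 minus 0 weeks, against 0.019 over all genes tested. It was -0.11 for 5 minus 0 weeks, against 0.018, and -0.18 for 5 minus 2 weeks, against 0.00073. The comparisons share libraries, so their values are set side by side and not related to each other.

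Levels of the receptors and Jagged ligands went low together in 1 library. In 5-week replicate 3, 6 of the 10 members (Notch1, Notch4, Jag1, Jag2, Heyl and Dll4) were at the lowest of all 12 libraries, and Hes2 was at its highest. This was the library with 7036 CPM of endothelium markers, against 7842 to 8425 CPM in the other 5-week mice, and with 917 CPM of leukocyte markers, against 515 to 685 CPM. Control replicates 1 and 2 had endothelium sums nearly as low, 7295 and 7181 CPM. Notch4 stood there at 180.4 and 191 CPM and Jag2 at 70.6 and 71.4 CPM, against 129 and 45.8 CPM in 5-week replicate 3. The part of tissue makeup in these low values was not tested. Relative to the mean log2 level of the endothelium markers in each library, Notch4 differed by -0.22 for 5 minus 0 weeks and by -0.023 for 5 minus 2 weeks. On that relative scale Jag2 differed by -0.32 from controls at 5 weeks and Notch1 by -0.19. Dll4 on the same scale was 0.14 above controls at 2 weeks, and Hes2 was 0.73 above them at 2 weeks and 0.97 at 5 weeks. Against this scale the median of all genes shifted to -0.077 for 2 minus 0 weeks and to 0.13 for 5 minus 2 weeks.

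Endothelium markers were higher at 2 weeks than in controls for 13 of 16 genes, with a median log2 difference of 0.094, and for 6 of 16 at 5 weeks, with a median of -0.031. Smooth muscle and pericyte markers, with 12 genes of which Notch3 is also a Notch receptor, were higher for 9 at 2 weeks and lower for 10 at 5 weeks. Immediate early genes, which respond within minutes to stimuli and handling, averaged higher for 14 of 14 genes at both 2 and 5 weeks, with medians of 0.67 and 0.57. Their sum ran from 1956 to 3391 CPM in controls, 3277 to 5392 CPM at 2 weeks and 2868 to 4322 CPM at 5 weeks, so mice of both treated groups overlapped controls. The 8 ciliated airway markers were all higher on average at 2 weeks, with a median of 0.24. Their sum at 2 weeks ran from 570.3 to 702 CPM against 523 to 678 CPM in controls. At 5 weeks 5 of the 8 were higher than in controls, with a median of 0.061. The markers listed for club and secretory airway included the basal airway genes Krt5 and Trp63. All 8 were lower on average at 5 weeks, with a median of -0.27. Their sum at 5 weeks, 20508 to 27773 CPM, overlapped that of controls, 22529 to 35210 CPM. At 2 weeks 5 of these 8 were higher than in controls, with a median of 0.025. Alveolar epithelium markers were higher for 9 of 10 genes at 2 weeks, with a median of 0.063, and for 10 of 10 at 5 weeks, with a median of 0.11. Across the 12 libraries, which share tissue makeup and group, Hes2 and this list had a Pearson's r of 0.64 and a Spearman's rho of 0.62. This was the highest r of Hes2 with any marker list, and it was 0.25 within groups. Within groups the r of Hes2 ran from -0.78 with the endothelium list to 0.54 with the ciliated list. The part of these shifts in the members' differences was not tested.

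**Figure D3:**
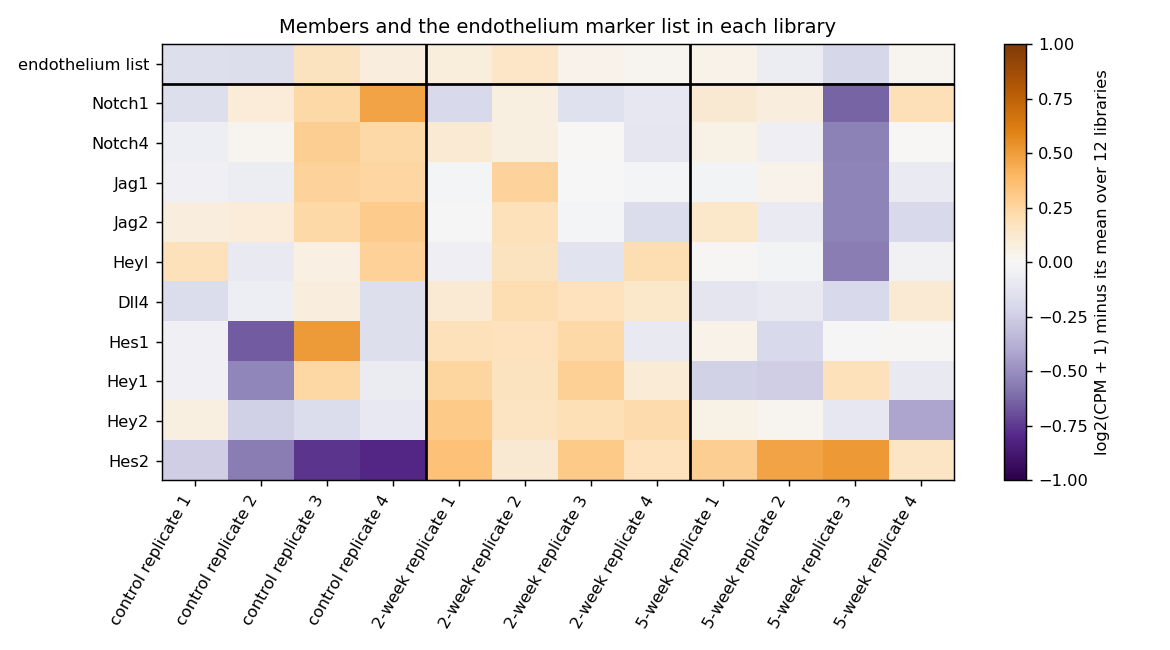
log2(CPM + 1) minus its mean over the 12 libraries (colour, from -1 to 1) for the endothelium marker list and the 10 members; columns are mice, in the order 0, 2 and 5 weeks. Notch1, Notch4, Jag1, Jag2 and Heyl share their lowest column, 5-week replicate 3, and Hes2 is low in all 4 controls.

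Ratios between members within a library do not depend on depth. Dll4 over Jag2 lay between 1.74 and 2.13 at 2 weeks, against 1.24 to 1.53 in controls, with no overlap, while the 5-week mice spread from 1.42 to 2.17. Dll4 over Notch4 lay between 0.609 and 0.726 at 2 weeks, against 0.464 to 0.574 in controls. Dll4 over Notch1 likewise separated the 2-week mice, at 0.647 to 0.733, from controls, at 0.378 to 0.583. Dll4 over Jag1 overlapped, at 1.40 to 1.65 against 1.10 to 1.46. Hey1 over Notch4 was 0.564 to 0.635 at 2 weeks against 0.356 to 0.528 in controls, and reached 0.868 in 5-week replicate 3. Hey1 over Notch1 overlapped, at 0.544 to 0.695 at 2 weeks against 0.329 to 0.550 in controls. So did Hey1 over Heyl, at 1.88 to 2.71 against 1.49 to 2.30. These ratios restate the values above and are no separate test.

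**Figure D4:**
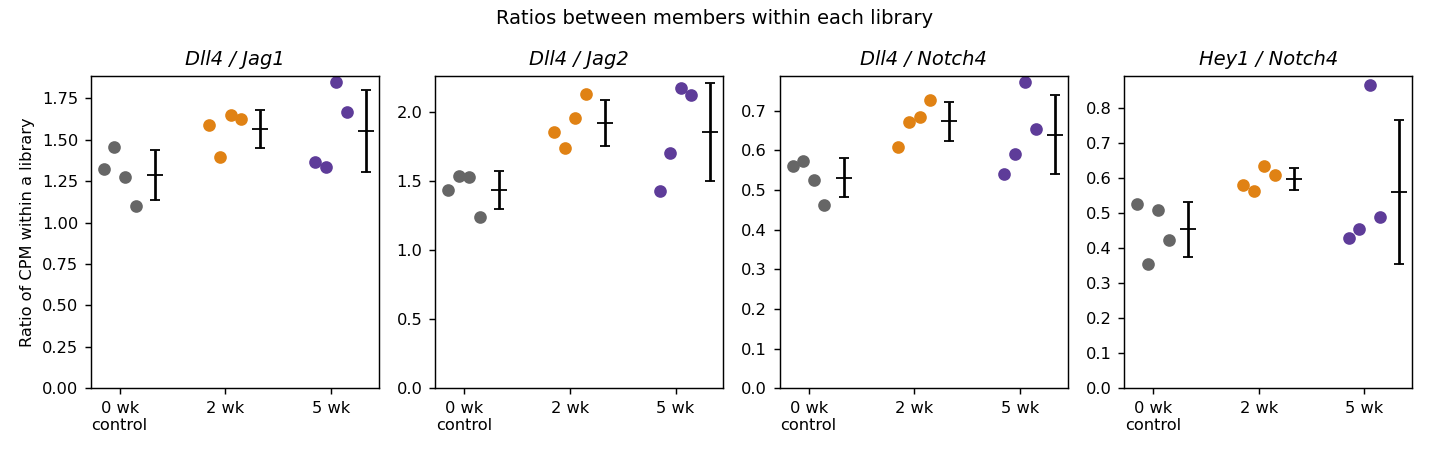
Ratio of the CPM of 2 members within each library (vertical axis, from 0) at 0, 2 and 5 weeks; points are mice and the black mark and bar the mean ± SD of 4. For Dll4 over Jag2, Dll4 over Notch4 and Hey1 over Notch4 the 2-week mice lie above all controls, and for Hey1 over Notch4 one 5-week mouse stands at 0.868.

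Levels of different genes can be set against each other only per length. Dividing by the exon length in GENCODE M21, Hes1 was the most abundant member in every group, at 68.7 ± 23.1 CPM per kb in controls, 76.9 ± 7.39 at 2 weeks and 68.5 ± 4.98 at 5 weeks (SD, n = 4). Hey1, Dll4 and Notch4 followed, at 28.6 ± 6.10, 28.1 ± 2.27 and 25.4 ± 2.88 CPM per kb in controls, within their spread of each other. Notch1 and Jag1 came next, at 15.4 ± 2.86 and 14.5 ± 1.79 CPM per kb, and then Jag2 and Heyl, at 10.9 ± 0.844 and 10.3 ± 1.11 CPM per kb. Hes2 and Hey2 were lowest and level with each other in controls, at 1.03 ± 0.259 and 1.03 ± 0.115 CPM per kb. In treated lungs Hes2 stood above Hey2 per length, at 2.09 ± 0.187 against 1.34 ± 0.069 CPM per kb after 2 weeks and at 2.31 ± 0.311 against 1.03 ± 0.177 CPM per kb after 5 weeks.

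The rest of the pathway was followed through 72 listed symbols in 9 roles, of which 69 were in the table and 64 reached a mean of 1 CPM. The symbols without a row were Hes3, Helt and Aes, an older symbol of the listed Tle5. Dll3, Dlk1, Dlk2, Hes5 and Hes7 fell short of that level. With limma 0 of the 64 passed an adjusted p of 0.05 in any comparison, and unadjusted p-values under 0.05 numbered 5 at 2 weeks and 5 at 5 weeks against controls, and 6 between the treated groups, where they went to 9.24%, 8.63% and 10.9% of all genes in the same order; as a share of 64, none of these counts exceeds that of all genes. For 2 minus 0 weeks 24 of the 64 were higher and 40 lower, with a median log2 difference of -0.049, against 0.019 over all genes. For 5 minus 0 weeks 24 were higher and 40 lower as well, with a median of -0.063 against 0.018. For 5 minus 2 weeks 35 were higher and 29 lower, with a median of 0.018. Groups did not overlap for 0 higher and 2 lower of the 64 at 2 weeks against controls. The counts were 1 higher and 1 lower at 5 weeks against controls, and 1 and 1 for 5 against 2 weeks. Over all genes the shares in either direction were 5.32%, 5.01% and 4.94% in the same order, and none of these counts exceeds them as a share of 64.

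Dll1, a Delta-like ligand of the same receptors as Dll4, had the lowest difference of the 64 genes in both comparisons with controls. It had 55.3, 83.7, 95.1 and 105 CPM in controls, 48.2, 49.7, 41.8 and 47.6 CPM at 2 weeks and 56.9, 60.9, 35.8 and 68.2 CPM at 5 weeks. All 2-week mice stood below all controls, and control replicate 1 lay within the 5-week range. The difference was -0.81 ± 0.20 for 2 minus 0 weeks (log2, SE, limma adjusted p = 0.238) and -0.60 ± 0.20 for 5 minus 0 weeks (limma adjusted p = 0.517). Without 5-week replicate 3 the second was -0.41. At 2 weeks Dll4 lay on the other side of controls, and the difference between Dll1 and Dll4 was not tested.

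Among modifiers of the receptors, Lfng, a glycosyltransferase that shifts Notch towards Delta-like ligands, averaged 69.5 ± 7.39 CPM at 5 weeks against 58.9 ± 3.37 CPM at 2 weeks (log2 difference 0.23 ± 0.081, limma adjusted p = 0.336). Poglut1, which adds glucose to the receptors, averaged 36.8 ± 3.55 CPM at 5 weeks against 33.2 ± 1.90 CPM in controls. Furin, the protease that matures Notch receptors, averaged 149 ± 18.1 CPM at 5 weeks against 161 ± 11.7 CPM in controls, and Mib1, the ligase that starts ligand endocytosis, 135 ± 15.5 against 141 ± 11.9 CPM. Of the 10 cleavage genes 6 were higher and 4 lower for 5 minus 0 weeks, all between -0.12 and 0.12 (log2).

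In the nucleus, Rbpjl, a relative of Rbpj, had 24.4, 24.2, 21.6 and 24.0 CPM at 5 weeks, against 26.8, 26.2, 27.5 and 26.7 CPM in controls. Its groups did not overlap, at a log2 difference of -0.18 ± 0.076 (limma adjusted p = 0.554). For 5 minus 0 weeks 8 of the 9 genes listed as nuclear complex and co-activators, Rbpjl among them, were lower, with a median of -0.087. For 2 minus 0 weeks 8 of the 9 were lower as well, with a median of -0.060. Tle2, a co-repressor bound by HES proteins, averaged 21.4 ± 4.05 CPM at 5 weeks against 29.4 ± 3.45 CPM at 2 weeks (-0.45 ± 0.13, limma adjusted p = 0.288). Its relative Tle1 averaged 77.1 ± 6.68 CPM at 5 weeks against 86.3 ± 9.44 CPM in controls.

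Dtx1, a Notch target in lymphocytes and a regulator of receptor traffic, lay between 9.23 and 12.6 CPM at 5 weeks, against 6.35 to 8.49 CPM in controls. All 5-week mice were above all controls (log2 difference 0.37 ± 0.14, limma adjusted p = 0.542). Leukocyte markers averaged higher at 5 weeks than in controls for 12 of 12 genes, with a median of 0.72. Their sum at 5 weeks, 515 to 917 CPM, overlapped that of controls, 317 to 539 CPM. The part of these cells was not tested. Dtx3, a relative of Dtx1, averaged 48.8 ± 6.09 CPM at 5 weeks against 63.0 ± 6.64 CPM at 2 weeks, with no overlap (-0.36 ± 0.12, limma adjusted p = 0.33). Bhlhe40, a helix-loop-helix repressor that also serves the clock, averaged 102 ± 5.56 CPM at 2 weeks against 118 ± 10.7 CPM in controls (-0.21 ± 0.078, limma adjusted p = 0.44). Vegfc, the lymphatic growth factor listed among arterial genes, averaged 19.0 ± 2.15 CPM at 2 weeks and 19.3 ± 1.32 CPM at 5 weeks, against 23.9 ± 4.64 CPM in controls.

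**Figure D5:**
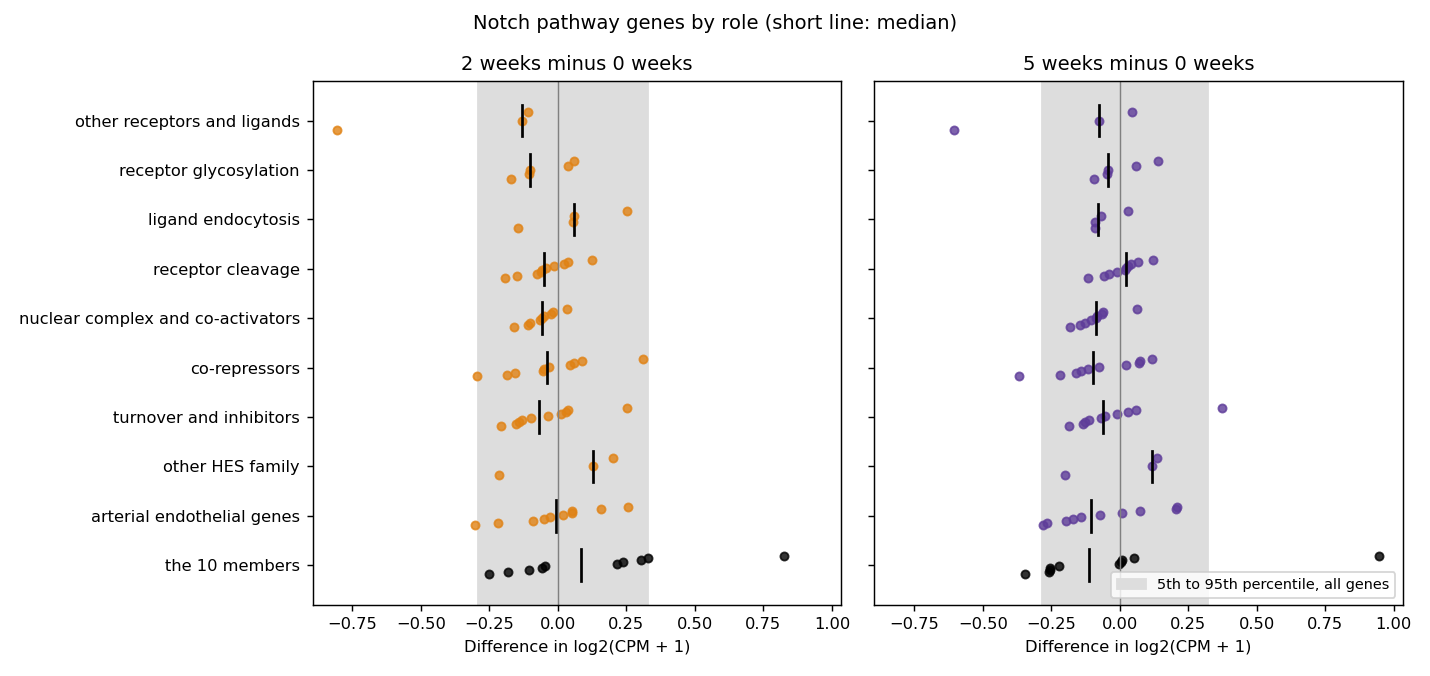
Difference in log2(CPM + 1) (horizontal axis) of 64 other Notch pathway genes by role and of the 10 members, for 2 minus 0 weeks (left) and 5 minus 0 weeks (right); points are genes, short lines medians, and the grey band the 5th to 95th percentile of all 15562 genes. Dll1 lies left of the band in both panels at -0.81 and -0.60, and Hes2 right of it at 0.83 and 0.94.

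The genes most alike to each member were sought by Pearson's r of log2(CPM + 1) over the 12 libraries among 14086 named genes, as a description with no test. Such r shares depth, tissue makeup and group between genes, and the highest of so many is high by selection. Hes1 was closest to the endothelial adhesion gene Esam (r = 0.94, and 0.93 within groups), one of the endothelium markers. Jag2 was closest to Nos3, which encodes the endothelial nitric oxide synthase that L-NAME inhibits (0.96 and 0.94 within groups). Nos3 averaged 34.2 CPM in controls, 29.7 CPM at 2 weeks and 26.9 CPM at 5 weeks. Notch4 was closest to Gnao1 (0.97) and the semaphorin gene Sema3f (0.96), and Gnao1 was also second for Jag2 (0.95). Dll4 was closest to the prostaglandin synthase gene Ptgs2 (0.93, and 0.85 within groups), which averaged 25.5 CPM in controls, 33.4 CPM at 2 weeks and 25.7 CPM at 5 weeks. Hes2 was closest to Acoxl (0.94) and Zscan2 (0.94), with 0.65 and 0.74 within groups. Acoxl averaged 27.7 CPM in controls, 40.7 CPM at 2 weeks and 41.7 CPM at 5 weeks. The remaining closest genes were Sptan1 and Rapgef2 for Notch1, Csnk1d and Camta2 for Jag1, Arhgef7 and Ntn1 for Heyl, Tbce and BC005624 for Hey1, Tjp3 and Ttc34 for Hey2, Sigirr for Hes1 and Stk38 for Dll4, with r between 0.89 and 0.97.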

How the data were processed

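The authors deposited 1 table of CPM values for 12 whole-lung libraries, in which every value carries an offset of 0.0001; per the submitters' processing notes, TopHat2 and Partek were used with mm10. For versions, annotation, strand and filtering, the sources used here give nothing. Of 23073 genes matched by identifier to GENCODE M21 only 501 had the same start, so positions are printed as the table gives them. Between 87.8% and 88.4% of low values lay within 0.1 of a whole step of 1 read, too few to recover counts, and no interval for counting error is given.

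Limma 3.58.1 in R 4.3.3 fitted 1 mean per group over 12 libraries to log2(CPM + 1) of the 15562 genes averaging at least 1 CPM, with a variance trend, two-sided tests and Benjamini-Hochberg adjustment over all of them (threshold 0.05). The test was tried on simulated counts. Members and lists were chosen with earlier results of these data known. Named are all members, the other pathway genes with the smallest p per comparison (3) or role (1), and the 2 genes most alike to each member. Mouse numbers served only to name libraries. Descriptions and plots were made in Python 3.11.15 (pandas 2.3.3, matplotlib 3.10.9, scipy 1.17.1, numpy 2.4.6). Alternatives were pseudocounts, filters, scalings, library weights, robust moderation, fits of 2 groups and leaving out libraries. The values of 1 pathway gene are not reported here.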

Additional observations from a re-analysis of the deposited data

Results flagged for a closer look

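In 5 of 66 groups of 4 mice (10 members and 12 other pathway genes at 3 times), 1 mouse stood apart from the other 3 by more than the 95% limit of Dixon's test, where chance gives about 1 in 20. Heyl stood at 32.6 CPM in 5-week replicate 3, against 47.4 to 48.8 CPM in the other 5-week mice. Jag1 stood at 94.4 CPM in 2-week replicate 2, against 77.3 to 78.2 CPM. Furin stood at 143 CPM in control replicate 3, against 165 to 168 CPM. Rbpjl stood at 21.6 CPM in 5-week replicate 3, against 24.0 to 24.4 CPM, and Tle1 at 89.7 CPM in 2-week replicate 3, against 79.9 to 81.2 CPM.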

How the results depend on the processing

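No paired analysis was possible because replicate numbers were given in accession order and pair no mice. Over all genes, library weights called 18 for 2 against 0 weeks and 881 for 5 against 2 weeks, where the reported fit called 0. Leaving out 1 library gave between 0 and 24 genes for 2 against 0 weeks (24 without 5-week replicate 3, 1 without control replicate 1), between 0 and 1 for 5 against 0 weeks (1 without control replicate 1) and between 0 and 386 for 5 against 2 weeks (386 without 2-week replicate 4). Members called ran between 0 and 1 in the first and second of these, the 1 being Hes2, which was chosen with these differences in view, so that the call is no support. With library weights 1 of 10 members was called for 5 against 2 weeks, Hey1 (-0.39 ± 0.10), of which the same holds. Of the 64 other pathway genes 3 were called, among them Tle2 and, named after its values were seen, Notch2 (0.28 ± 0.07). As a share of 64 these 3 do not exceed the 881 of 15562 genes called under that setting. The causes were not tested. Of the other counts 188 did not move. Hes2 was above controls in all 23 alternatives, by between 0.45 and 1.05 (log2) at 2 weeks and between 0.53 and 1.19 at 5 weeks. Dll4 was above controls at 2 weeks in 23 of 23 (0.14 to 0.29), Hey1 in 23 of 23 (0.14 to 0.42) and Hey2 in 22 of 22 (0.20 to 0.39). Alternatives reuse the same libraries, and some, such as leaving out a 5-week library, cannot move a difference between 2 weeks and controls. The members were also chosen with these differences in view, so the tallies of direction are no support. Hes1 at 2 weeks ran between -0.0097 and 0.41. Notch1 at 5 weeks ran between -0.33 and 0.018. With control replicate 2, 2-week replicate 3 and 5-week replicate 3 left out together, Hey1 was -0.23 for 5 minus 0 weeks. The first of these held the lowest control value of Hey1, 67.9 CPM, and the last its highest 5-week value, 112 CPM. Hes2 and Hey2 rest on the fewest reads of the members.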
